A study of Bos taurus with 12 samples.

Results

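Plasminogen activators, tissue inhibitors of metalloproteases (TIMPs) and the metalloprotease MMP9 were followed in cultured bovine chromaffin cells, which store and secrete catecholamines in the adrenal medulla. The members are the 6 probe sets that the platform annotation assigns to PLAT, PLAU, TIMP1, TIMP3 or MMP9, of 24016 probe sets tested on 12 single-colour Affymetrix arrays. PLAT (NCBI Gene 281407), PLAU (281408), TIMP3 (282094) and MMP9 (282871) had 1 probe set each, and TIMP1 (282092) had 2, whose names differ only in the suffix _s_at. Cells received interleukin-6 (IL6) at 10 nM for 24 h, human interferon alpha (IFNα; 1 nM, 24 h), histamine at 10 µM for 6 h, or no treatment, with 3 arrays per group. The submitters call the triplicates technical, so p-values here measure the spread between these arrays and not between cultures or animals. Neither the species of the IL6, nor the number of animals behind the cultures, nor how long untreated cells were kept is stated in the labels.

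PLAT, tissue-type plasminogen activator, and PLAU, urokinase, cut the zymogen plasminogen to plasmin, which breaks down fibrin and matrix proteins. In chromaffin cells PLAT is known as cargo of the catecholamine granules, and plasmin made at the cell surface can process chromogranin A. MMP9, gelatinase B, degrades basement membrane collagen and is secreted as a proenzyme. TIMP1 is a soluble inhibitor of many metalloproteases and binds the proenzyme of MMP9, whereas TIMP3 is held in the matrix and also inhibits ADAM17 and ADAMTS proteases.

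All values below are log2 expression levels as deposited, and differences are on the log2 scale unless given as folds. Levels of different probe sets cannot be set against each other on an array, so each gene was compared only with itself. The call required both an adjusted p under 0.05 in limma and a fold of at least 1.5. The mean over all arrays was 6.79, and on single arrays the lower quartile was 5.02 to 5.11 and the highest value was 14.01 to 14.14. The 6 probe sets lay above the lower quartile on all 12 arrays. TIMP1 read up to 12.97 and stayed below the top of the scale. Arrays of the same group correlated at 0.993 to 0.998 across probe sets. Of 8 chromaffin cell markers 7 were measured, with untreated means from 8.12 (PNMT) to 13.89 (PENK). Markers of other cells were also read: all 8 adrenal cortex markers lay above the lower quartile, as did 10 of 11 fibroblast and mural markers (not FAP). Among 8 measured endothelial markers VWF, KDR and CLDN5 lay below it, and among 11 leukocyte markers PTPRC, TYROBP and FCER1G. Most probe sets lie above the lower quartile by definition, so such a level does not show that a transcript was present. In bulk RNA, fewer cells of a type and less RNA per cell cannot be told apart.

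All 3 agents were compared with the same untreated arrays, to ask how each changes these transcripts. IL6 raised both activators and TIMP1: 4 of 6 probe sets, representing PLAT, PLAU and TIMP1, were called higher and none lower, against 1.44% of all probe sets called higher. Histamine raised PLAU, TIMP1, TIMP3 and MMP9, with 5 of 6 probe sets called higher, none lower and PLAT not called, against 2.99% of all probe sets called higher. IFNα moved none of the 6 past both thresholds. Over all probe sets 3.36% were called, so this count is no result about the 6. Of the 6, limma gave 4 an adjusted p under 0.05 after IFNα (16.7% of all probe sets) and 5 an unadjusted p under 0.05. The median log2 change of the 6 was 0.68 after IL6, -0.01 after IFNα and 0.70 after histamine, beside medians over all probe sets of 0.00, -0.02 and 0.00. The members were chosen with earlier results of these data known. Their counts and medians, here and below, therefore describe them and do not test them as a set. TIMP1 enters these counts with both of its probe sets. By the moderated F test over the 4 groups each of the 6 differed among groups (adjusted p from 6.73e-11 to 5.43e-06), as did 49.1% of all probe sets.

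**Figure D1:**
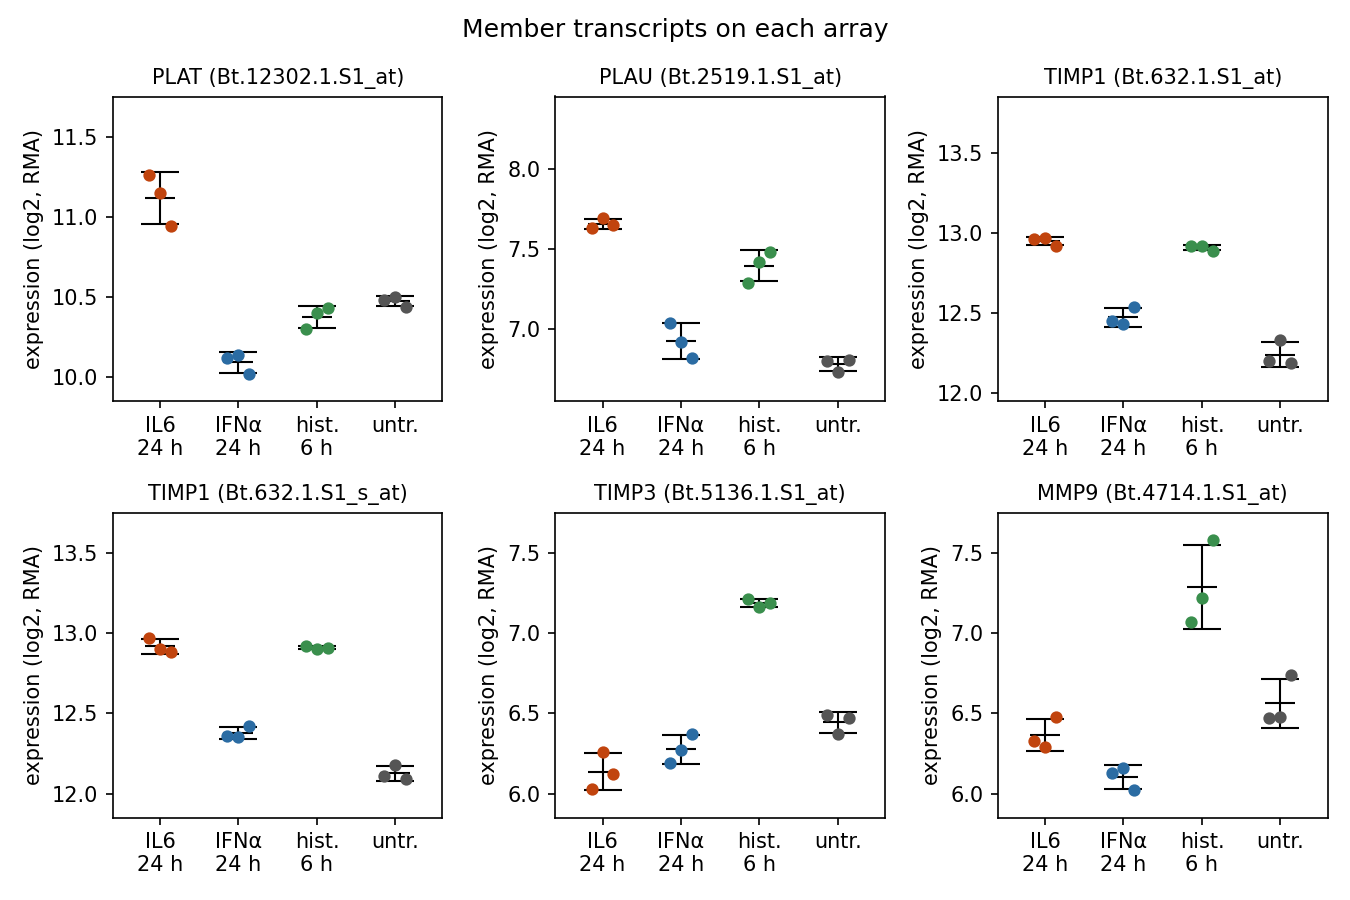
Log2 expression of the 6 probe sets on each array. Points are single arrays, black bars the group mean and SD (n = 3), and every panel spans the same log2 width. IL6 arrays are the highest for PLAT (10.94 to 11.26) and PLAU (7.63 to 7.69), IL6 and histamine arrays lie together for TIMP1, and histamine arrays are the highest for TIMP3 (7.16 to 7.21) and MMP9 (7.07 to 7.58).

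PLAT was highest after IL6 and lowest after IFNα. It read 11.26, 11.15 and 10.94 on IL6 arrays, 10.12, 10.14 and 10.02 on IFNα arrays and 10.30, 10.40 and 10.43 on histamine arrays, against 10.48, 10.50 and 10.44 on untreated arrays. The IL6 arrays lay above all others by at least 0.44, and the IFNα arrays lay below all others. PLAT rose 1.56-fold after IL6 (log2 change 0.64, SE 0.07; limma, adjusted p = 1.16e-05). After IFNα its log2 change was -0.38 (95% interval -0.52 to -0.24; limma, adjusted p = 0.000929), short of the fold minimum. Histamine gave -0.10 (interval -0.24 to 0.05; adjusted p = 0.328). IL6 and IFNα, both at 24 h but at different molar doses, differed by 1.02 (2.03-fold, SE 0.07; adjusted p = 2.26e-08).

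The IL6 call of PLAT stood close to the fold minimum. It was lost without IL6 repeat 1, where the log2 change was 0.57. A list of hypoxia genes, 10 of 12 measured, separated the same arrays: its mean lay 0.17, 1.0 and 1.5 above the untreated mean on IL6 repeats 1, 2 and 3, and -0.02, -0.02 and 1.11 from it on IFNα repeats 1, 2 and 3. PLAT lay 0.79, 0.68 and 0.47 above its untreated mean on those IL6 arrays, so it was lowest where the hypoxia genes were highest. On IFNα repeat 3 it was also the lowest of the IFNα arrays. Without IL6 repeats 2 and 3 and IFNα repeat 3, a setting that keeps 1 IL6 array and assumes that it varies like the other groups, the PLAT change was 0.79 (adjusted p = 9.01e-07) and the same 4 probe sets were called higher after IL6.

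PLAU had its highest levels after IL6. It read 7.63, 7.69 and 7.65 on IL6 arrays, 7.04, 6.92 and 6.82 on IFNα arrays and 7.29, 7.42 and 7.48 on histamine arrays, against 6.80, 6.73 and 6.81 on untreated arrays. All IL6 and all histamine arrays lay above all untreated arrays, by at least 0.82 and 0.48, while the lowest IFNα array was 0.01 above the highest untreated array. PLAU rose 1.84-fold after IL6 (log2 change 0.88, SE 0.07; limma, adjusted p = 1.23e-06) and 1.53-fold after histamine (0.62, SE 0.07; adjusted p = 1.37e-05). Without histamine repeat 3 the histamine change was 0.57, below the fold minimum. IFNα gave a log2 change of 0.15 (interval -0.01 to 0.30; adjusted p = 0.208). IL6 exceeded IFNα by 0.73 (1.66-fold; adjusted p = 2.25e-06). It exceeded histamine by 0.26 (interval 0.10 to 0.42; adjusted p = 0.0123), a comparison in which time and dose differ as well.

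**Figure D2:**
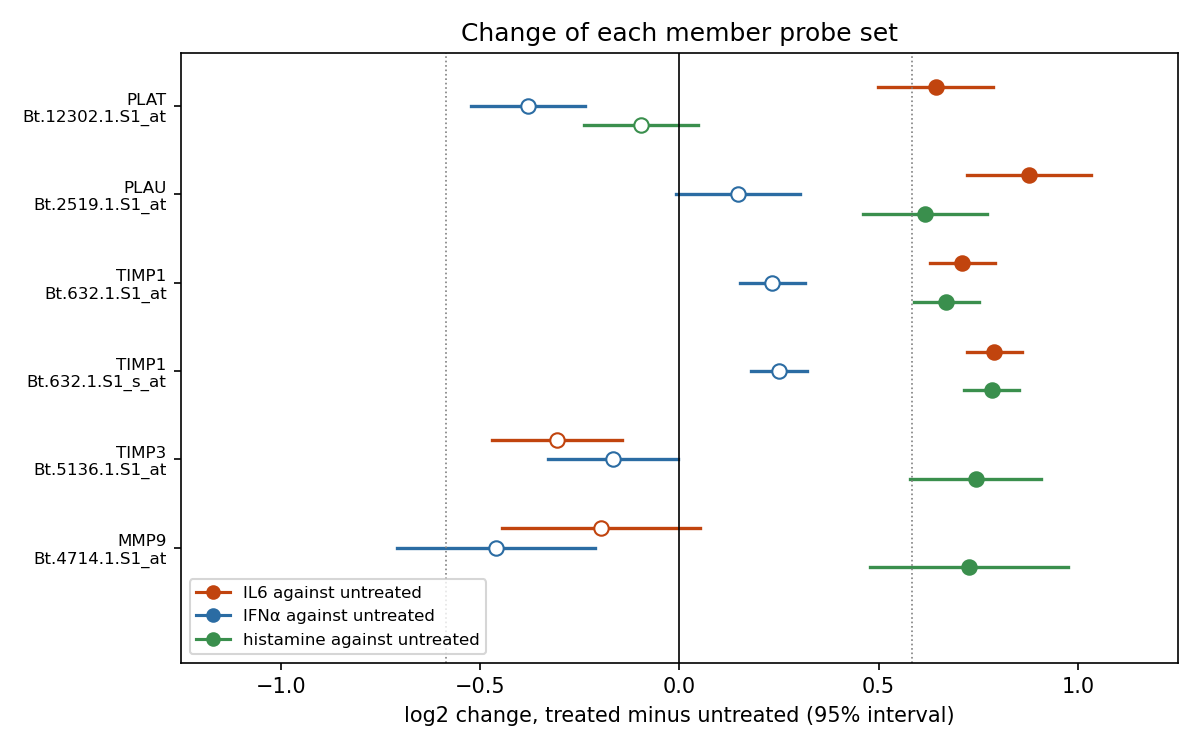
Log2 change of each probe set after IL6, IFNα and histamine, each minus the same untreated arrays, with limma's 95% interval. Filled points were called, open points were not, and dotted lines mark a fold of 1.5. The 4 IL6 calls span 0.64 to 0.88 and the 5 histamine calls 0.62 to 0.78, whereas no IFNα point passes the dotted lines.

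TIMP1 rose after both IL6 and histamine. Its brighter probe set read 12.96, 12.97 and 12.92 on IL6 arrays, 12.45, 12.43 and 12.54 on IFNα arrays and 12.92, 12.92 and 12.89 on histamine arrays, against 12.20, 12.33 and 12.19 on untreated arrays. IL6 and histamine arrays overlapped, the IFNα arrays lay between them and the untreated arrays, and no array of those 3 levels crossed into another. TIMP1 rose 1.64-fold after IL6 (log2 change 0.71, SE 0.04; limma, adjusted p = 1.90e-08) and 1.59-fold after histamine (0.67, SE 0.04; adjusted p = 1.52e-08). IFNα gave 0.23 (SE 0.04; adjusted p = 0.000486), less than the fold minimum. The IL6 minus histamine difference was 0.04 (interval -0.04 to 0.12; adjusted p = 0.464), with time and dose differing. IL6 exceeded IFNα by 0.48 (interval 0.39 to 0.56; adjusted p = 2.15e-07), also short of 1.5-fold.

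The other TIMP1 probe set (suffix _s_at) read 12.97, 12.90 and 12.88 on IL6 arrays, 12.36, 12.35 and 12.42 on IFNα arrays and 12.92, 12.90 and 12.91 on histamine arrays, against 12.11, 12.18 and 12.09 on untreated arrays. It gave the same order, with log2 changes of 0.79, 0.25 and 0.78 after IL6, IFNα and histamine (SE 0.03 each). Both sets thus called TIMP1 after IL6 and histamine. They are not independent measurements, since both are assigned to the same gene.

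TIMP3, the matrix-bound inhibitor, rose after histamine, as TIMP1 did, but was not called after IL6. It read 6.03, 6.26 and 6.12 on IL6 arrays, 6.19, 6.27 and 6.37 on IFNα arrays and 7.21, 7.16 and 7.19 on histamine arrays, against 6.49, 6.37 and 6.47 on untreated arrays. The histamine arrays lay at least 0.67 above all untreated arrays, and the IL6 arrays lay at least 0.11 below them. TIMP3 rose 1.67-fold after histamine (log2 change 0.74, SE 0.08; limma, adjusted p = 3.81e-06). After IL6 its log2 change was -0.31 (interval -0.47 to -0.14; adjusted p = 0.0126), which missed the fold minimum, while the IL6 change of TIMP1 had an interval of 0.63 to 0.79. The IFNα change of TIMP3 was -0.17 (adjusted p = 0.169). IL6 and histamine differed by -1.05 (interval -1.21 to -0.89; adjusted p = 1.39e-07), and IFNα and histamine by -0.91 (adjusted p = 2.44e-07), with time and dose differing in both. On the same arrays 3 of 8 adrenal cortex markers were called lower after IL6, 5 lower after IFNα and 2 higher after histamine. Over all probe sets 2.39%, 3.36% and 5.7% were called in either direction. The part of cortical cells in the TIMP3 result was not tested.

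MMP9, the metalloprotease among the members, had the largest standard error of the 6 probe sets (0.12). It read 6.33, 6.29 and 6.48 on IL6 arrays, 6.13, 6.16 and 6.02 on IFNα arrays and 7.07, 7.22 and 7.58 on histamine arrays, against 6.47, 6.48 and 6.74 on untreated arrays. Histamine arrays lay above all untreated arrays and IFNα arrays below all of them, whereas IL6 and untreated arrays overlapped. MMP9 rose 1.65-fold after histamine (log2 change 0.73, SE 0.12; limma, adjusted p = 0.000209). Without histamine repeat 3, the highest array, the change was 0.58, below the fold minimum. PLAU and MMP9 were then both lost, leaving 3 of 6 probe sets called after histamine.

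After IFNα the log2 change of MMP9 was -0.46 (interval -0.71 to -0.21; adjusted p = 0.0126), short of the fold minimum, and its adjusted p ran from 0.00233 to 0.0724 over the alternatives. IL6 gave -0.20 (interval -0.45 to 0.05; adjusted p = 0.270). IFNα and histamine differed by -1.19 (2.28-fold higher after histamine; adjusted p = 1.23e-06), and IL6 and histamine by -0.92 (adjusted p = 2.57e-05), with time and dose differing. Of 8 adrenal cortex markers, 3 were called lower after IL6, 5 lower after IFNα and 2 higher after histamine, against 2.39%, 3.36% and 5.7% of all probe sets called in either direction. Their mean lay at -0.53 to -0.45 on IL6 arrays, -0.69 to -0.60 on IFNα arrays and 0.41 to 0.43 on histamine arrays, relative to the untreated mean. CYP11A1 and HSD3B1, enzymes of steroid synthesis, were the 2 called after all 3 agents, lower after IL6 (-1.27 and -0.78) and IFNα (-1.06 and -0.81) and higher after histamine (0.93 and 0.83). CYP11B1, MC2R and NR5A1 were called after none of them, with log2 changes from -0.19 to 0.16. The part of cortical cells in the MMP9 result was not tested.

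**Figure D3:**
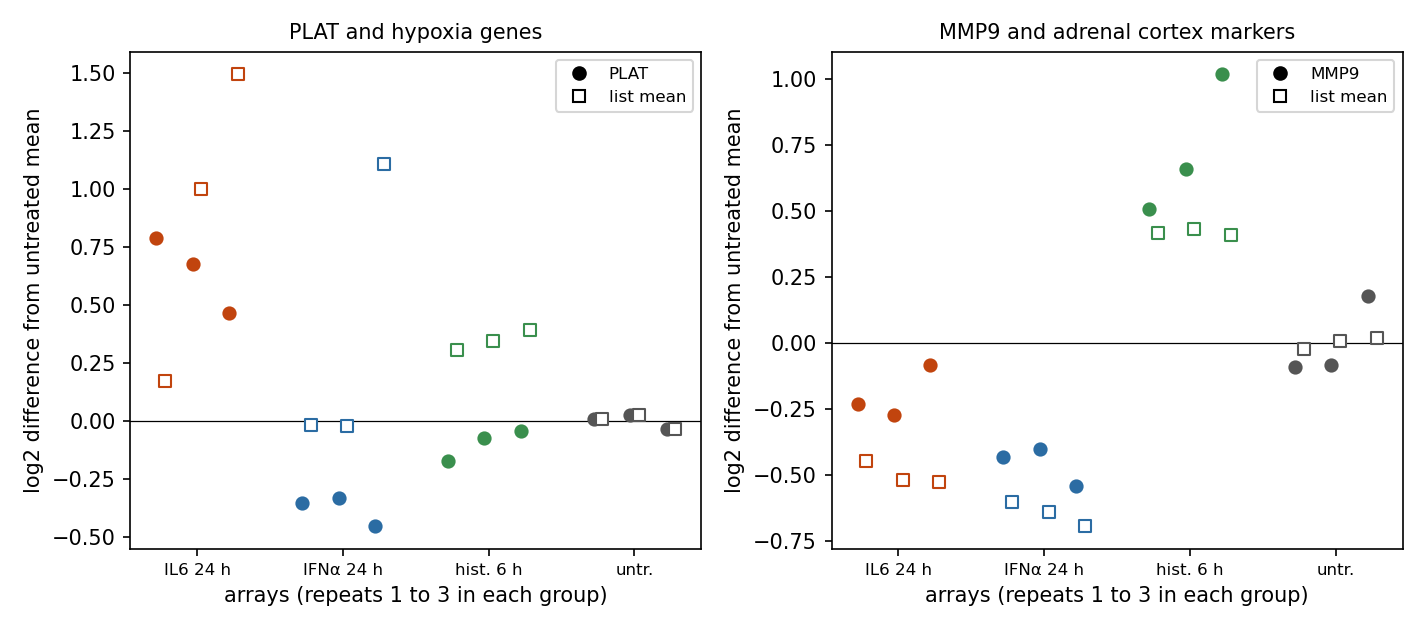
Left, PLAT and the mean of 10 hypoxia genes; right, MMP9 and the mean of 8 adrenal cortex markers, each as the log2 difference from its untreated mean on every array (repeats 1 to 3 side by side). Filled circles are the gene and open squares the list mean. The hypoxia mean ranges from 0.17 to 1.5 within the IL6 group, where PLAT ranges from 0.47 to 0.79. The cortex mean is lowest after IFNα and highest after histamine, as is MMP9. The mean of the fibroblast and mural markers, not drawn, has the same order.

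Markers of other cells that can make these proteins were read on the same arrays. Of 11 fibroblast and mural markers, 1 was called higher and 1 lower after IL6, 1 lower after IFNα and 1 higher after histamine, against 2.39%, 3.36% and 5.7% of all probe sets called in either direction. The median log2 changes of this list were 0.05, -0.13 and 0.22. Relative to its untreated mean, the list mean lay at -0.10 to -0.09 on IL6 arrays and -0.23 to -0.13 on IFNα arrays. It lay at 0.21 to 0.26 on histamine arrays, so its group order was that of MMP9, as for the cortex mean. POSTN was called higher after IL6 (0.94) and ACTA2 lower (-0.67), and COL1A2 was called higher after histamine (0.69). The summed linear signal of the list, most of it from DCN and RGS5, was 15480 to 16750 on IL6 arrays, 16350 to 17190 on IFNα arrays and 19120 to 19690 on histamine arrays, against 18190 to 18960 on untreated arrays. The log2 change after IL6 was 0.07 for DCN and -0.50 for RGS5, so the sum does not describe the list as a whole. Of 11 leukocyte and macrophage markers, 2 were called higher and 1 lower after IL6, 1 lower after IFNα and 2 higher after histamine, against the same shares of all probe sets, and their median log2 changes were 0.12, 0.00 and 0.08. CORO1A and CD14 were the 2 called higher after IL6 (1.70 and 1.03), and ITGB2 was the 1 called lower (-0.95). S100A12 was the 1 called lower after IFNα (-1.45), and S100A12 and CORO1A were the 2 called higher after histamine (1.16 and 0.70). The summed signal of the 11, to which CORO1A and CD14 gave most on IL6 arrays, was 1352 to 1492 on IL6 arrays, 701 to 759 on IFNα arrays and 1022 to 1122 on histamine arrays, against 798 to 849 on untreated arrays. Of 8 measured endothelial markers, 1 was called lower after IL6, 1 lower after IFNα, and 1 higher and 1 lower after histamine, against the same shares. Their median log2 changes were -0.13, -0.24 and -0.14. EMCN was the 1 called after IL6 and IFNα (-0.60 and -0.89), and after histamine CLDN5 was called higher (0.62) and TEK lower (-0.81). The summed signal of the 8 was 442 to 491 on IL6 arrays, 418 to 433 on IFNα arrays and 457 to 534 on histamine arrays, against 556 to 576 on untreated arrays. Chromaffin cell markers were read the same way, against the same shares. Of 7 measured, 1 was called higher (SLC18A2, 0.85) and 1 lower (PNMT, -0.71) after IL6. After IFNα 0 were called, and after histamine 2 were called higher (PNMT, 2.29, and SLC18A2, 0.77). Their mean lay at -0.29 to 0.07 on IL6 arrays, -0.05 to 0.34 on IFNα arrays and 0.32 to 0.48 on histamine arrays. The part of any of these cells in the members' changes was not tested.

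Ordered by mean level, PLAT ran from IL6 through untreated and histamine to IFNα. Untreated and histamine were not separated by the test, and the highest histamine array was 0.01 below the lowest untreated array. PLAU ran from IL6 through histamine and IFNα to untreated, with IFNα and untreated not separated by the test. For TIMP1 the order was IL6, histamine, IFNα and untreated, with IL6 and histamine not separated. TIMP3 ran from histamine through untreated and IFNα to IL6, and neither untreated from IFNα nor IFNα from IL6 was separated (adjusted p = 0.197 for the last pair). MMP9 ran from histamine through untreated and IL6 to IFNα. The test separated neither untreated from IL6 nor IL6 from IFNα (limma, adjusted p = 0.109 for the last pair), though all IL6 arrays lay above the IFNα arrays, by at least 0.13. Between the cytokines 2 of 6 probe sets, PLAT and PLAU, were called higher after IL6, against 2.82% of all probe sets. Between IL6 and histamine PLAT was higher and TIMP3 and MMP9 were lower after IL6, 3 of 6 against 6.2% called in either direction. TIMP3 and MMP9 were the 2 of 6 called lower after IFNα than after histamine, against 4.91% of all probe sets.

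The remaining genes of plasminogen activation and matrix proteolysis were read from the same fit. Of 42 listed genes 24 were measured, and limma called 0 after IL6, 1 lower after IFNα and 0 after histamine, with an unadjusted p under 0.05 for 11 in each comparison. The shares called over all probe sets were 2.39%, 3.36% and 5.7% in either direction, so these counts are no result about the list. Of the 24, 8 were called between IL6 and IFNα and 3 between IL6 and histamine, against 6.11% and 6.2% of all probe sets. The median log2 changes of the 24 were 0.06 after IL6, 0.02 after IFNα and 0.09 after histamine. A2M, a broad protease inhibitor that also traps plasmin, was the 1 called after IFNα, and it averaged 9.77 ± 0.09 on IFNα arrays and 10.77 ± 0.11 on untreated arrays (SD, n = 3 each), a log2 change of -1.0 (limma, adjusted p = 8.04e-09). The 18 listed genes without a named probe set were not analysed here.

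By role, none of the 5 genes of plasminogen and its cell-surface binding was called after any agent. Over all probe sets 2.39%, 3.36% and 5.7% were called after IL6, IFNα and histamine, so this count is no result about the 5. ANXA2, annexin A2, which binds plasminogen and PLAT at the cell surface, had the largest log2 change of the 5 after IL6 (0.53, adjusted p = 4.74e-07), below the fold minimum. It differed between the cytokines, at 13.13 ± 0.08 after IL6 and 12.47 ± 0.04 after IFNα (1.59-fold; limma, adjusted p = 6.81e-09). PLAUR, the urokinase receptor, named after its values were seen, had log2 changes of 0.15, 0.20 and 0.43 after IL6, IFNα and histamine and was not called. ENO1, which also serves in the hypoxia list, had 0.51, -0.01 and 0.01.

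Among the inhibitors, SERPINE2 (protease nexin-1, an inhibitor of thrombin, urokinase and tissue activator) and SERPINI1 (neuroserpin, an inhibitor of tissue activator) had log2 changes of -0.39 and -0.48 after IL6 and 0.28 and 0.30 after IFNα. None of these 4 changes was called. Both were called lower after IL6 than after IFNα, by 0.66 and 0.78 (limma, adjusted p = 3.57e-05 and 9.40e-08), the opposite direction to PLAT and PLAU in that comparison. A2M was higher after IL6 than after IFNα by 1.07. In all, 4 of the 24 were called higher and 4 lower between the cytokines, beside 6.11% of all probe sets called in either direction.

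The 9 other metalloproteases had no call against untreated cells, with log2 changes from -0.55 to 0.46 over the 3 agents. Beside the small shares called over all probe sets, this count too is no result about the 9. MMP2, gelatinase A, had -0.23 after IL6, 0.46 after IFNα and 0.41 after histamine. It was lower after IL6 than after IFNα by 0.68 (limma, adjusted p = 1.11e-05) and lower than after histamine by 0.64 (adjusted p = 2.22e-05). This gelatinase and MMP9 had log2 changes of opposite sign after IFNα, neither of them called, and of the same sign after IL6 and after histamine. MMP16, a membrane-type metalloprotease, was higher after IL6 than after IFNα by 0.79, but its other 2 probe sets gave -0.13 and 0.11. TIMP2 had log2 changes of -0.27, 0.09 and 0.13 after IL6, IFNα and histamine, and its 2 other probe sets gave -0.60 and -0.45 after IFNα. TIMP4 was higher after IFNα than after histamine by 0.64, while its other probe sets ranged from -0.02 to 0.61. Of the aggrecan-cleaving and related proteases that TIMP3 can inhibit, ADAMTS4 was higher after IL6 than after IFNα by 0.73 and than after histamine by 0.59. ADAMTS1 was lower after IL6 than after IFNα by 0.60, and higher after IFNα than after histamine by 0.63.

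**Figure D4:**
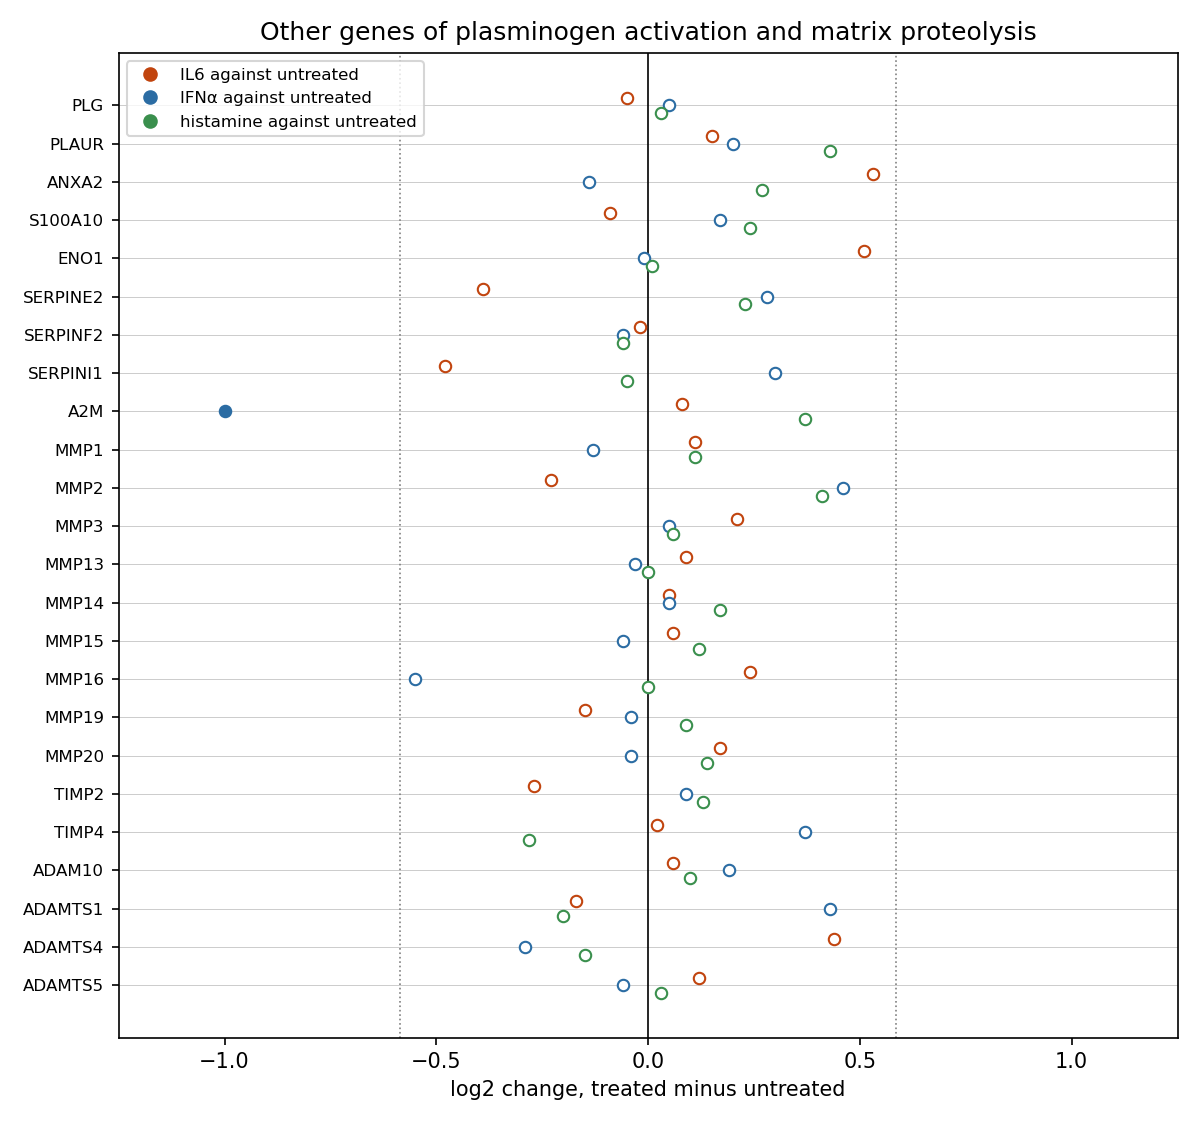
Log2 change of the 24 measured genes of the wider pathway after IL6, IFNα and histamine, each minus the same untreated arrays. Filled points were called, open points were not, and dotted lines mark a fold of 1.5. A2M after IFNα (-1.0) is the single filled point.

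The members fell into different patterns over the 12 arrays. As a description of likeness, with arrays in 4 groups of 3 and no test, Pearson's correlation over the 12 arrays was 0.93 between PLAU and each TIMP1 probe set and 0.88 between TIMP3 and MMP9. It was 0.71 between PLAT and PLAU, and -0.36 between PLAT and TIMP3. Among named genes spanning at least 1 log2 unit (943 or 944 candidates), those most like PLAT were RHOQ, PIGF and RETREG1 (0.991, 0.990 and 0.982). The probe sets of RHOQ and PIGF carry the same cluster number in their names, so they may not be independent. RHOQ had log2 changes of 0.87, -0.46 and -0.07 after IL6, IFNα and histamine, beside 0.64, -0.38 and -0.10 for PLAT.

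TNFRSF6B, TF and TRIB1 were most like PLAU (0.966, 0.944 and 0.943). TF encodes transferrin and had log2 changes of 1.08, 0.33 and 0.62 after IL6, IFNα and histamine. The galanin gene GAL, TF and the potassium channel subunit gene KCNE1 were most like TIMP1 (0.961, 0.918 and 0.907). GAL had log2 changes of 1.45, 0.19 and 1.64, beside 0.71, 0.23 and 0.67 for TIMP1. CITED2, TUNAR and IGFBP7 were most like TIMP3 (0.975, 0.974 and 0.971), and CITED2 had log2 changes of -0.31, -0.20 and 0.87. LYVE1, FHL2 and SCARB1 were most like MMP9 (0.974, 0.965 and 0.963). SCARB1, the lipoprotein receptor that supplies cholesterol to steroidogenic cells, had log2 changes of -0.21, -0.41 and 0.58, beside -0.20, -0.46 and 0.73 for MMP9.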

How the data were processed

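Biotin-labelled total RNA was read on single-colour bovine arrays, per the labels' protocols. The authors made the deposited log2 expression values with RMA, per the submitters' processing notes. This method subtracts background, scales the arrays to one another and combines the probes of a set, so small differences of dim transcripts are compressed. Its version was not given. The table held 24128 probe sets, of which 112 control probe sets were left out. Platform symbols were single for 13292 of the tested probe sets, multiple for 86 and missing for 10638. Symbols were updated through a table of cattle genes, and the brightest probe set stood for a gene of the lists.

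Groups came from the sample titles. limma 3.58.1 in R 4.3.3 fitted a mean per group over all 12 arrays, with a trended eBayes step and Benjamini-Hochberg adjusted p-values over all 24016 probe sets. Intervals are at 95%. The procedure was tested on simulated data. Plots used matplotlib 3.10.9 (Python 3.11.15). Members, lists and comparisons were chosen with earlier results of these data known. Named besides the members were called genes of the pathway list and, per member, the 3 genes with the most similar profile. Alternatives were the repeat number as a block, leaving out each array, other fold minimums, eBayes without trend or robust, quantile normalization, median centring, leaving out the dimmer 50% of probe sets, the compared groups alone and the mean of a gene's probe sets. A fit without 3 arrays whose hypoxia genes were raised was chosen after seeing the data. Another background correction was not possible on summarised values. Sequences and coordinates were not used here.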

Additional observations from a re-analysis of the deposited data

How the results depend on the processing

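Over 23 alternative settings, 767 of 798 recomputed log2 changes of the members kept their direction and their side of the thresholds. The fold minimum mattered most. With a minimum of 2-fold, 0 of 6 probe sets were called by limma after IL6 and 0 after histamine (unadjusted p under 0.05 for 5 in each), and 1 was called for IL6 against IFNα, 1 for IL6 against histamine and 1 for IFNα against histamine. With no fold minimum, 4 were called after IFNα (2 higher, 2 lower), beside 16.7% of all probe sets. Under the same setting 4 were called for IL6 against IFNα and 6 for IFNα against histamine. No such share was computed for the other counts at these minimums, so they show only how the calls depend on the minimum. Leaving out single arrays gave 3 to 5 calls after histamine and 3 to 4 after IL6. The IL6 against histamine difference of the second TIMP1 probe set (suffix _s_at, 0.01 with all arrays) changed sign without being called, to -0.0331 with quantile normalization, and ran from -0.02 to 0.025 when single arrays were left out. Without the 3 arrays with raised hypoxia genes, which leaves 1 IL6 array, the IL6 against IFNα difference of that probe set was 0.62. The causes were not tested. With the repeat number as a block, the number of calls was 4 after IL6, 0 after IFNα and 5 after histamine, as without it. Same-numbered arrays of different groups had deviations correlated from -0.07 to 0.60 (median 0.06), 7 of 18 pairs over 0.1. Differently numbered arrays ranged from -0.61 to 0.37 (median -0.04), 3 of 36 pairs over 0.1. Whether the repeat number marks a shared batch was not tested, and the main fit did not use it. Scaling moved the median of all probe sets by at most 0.04. No detection calls come with the values, so dim transcripts have no stated limit.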
